A study of Mus musculus with 20 samples.

Results

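The clustered protocadherin genes were followed in the cortex and hippocampus of mouse pups with extra copies of Ube3a and of their wild-type controls. Members were the genes whose symbol in the deposited count tables begins with Pcdha, Pcdhb or Pcdhg, which gave 59 of 47729 gene identifiers: 14 in the alpha, 22 in the beta and 23 in the gamma cluster. All 3 clusters lie on chromosome 18 of the mouse genome (GRCm38), alpha from 36930184 to 37187661, beta from 37264938 to 37524479 and gamma from 37661793 to 37841873. Bulk RNA-seq was made from both brain regions of 10 pups at postnatal day 7 on the C57Bl/6J strain, 5 wild-type (WT) and 5 carrying a bacterial artificial chromosome transgene of Ube3a (Ube3aOE in the labels, Ube3a+2 here), so that 20 libraries fell into 4 groups of 5. The transgene holds the coding region of mouse Ube3a with its own flanking sequence, chosen to follow the pattern of the endogenous gene. The study made several transgenic lines and characterised mainly its line E, and the line behind these libraries is not stated in the sources used here. Each region was taken whole, so that fewer cells of a type and less RNA per cell cannot be told apart.

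Clustered protocadherins are cadherin-like cell surface proteins that bind the same isoform on a facing membrane and serve in neurons for self-avoidance of dendrites and axons, neuronal survival and wiring. In the alpha and gamma clusters each gene has its own promoter and a large variable exon that is spliced to constant exons shared by the whole cluster, whereas beta genes are single exons. Most promoters are chosen at random in single neurons, while the C-type genes at the end of the alpha and gamma clusters (Pcdhac1, Pcdhac2, Pcdhgc3, Pcdhgc4 and Pcdhgc5) are used more uniformly.

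Reads over exons that several genes share were not assigned to any gene, so that an alpha or gamma value here is that of the variable exon and not of the constant exons. The identifier that the tables name Pcdhga8 at ENSMUSG00000023036 is Pcdhgc4 in the GENCODE and RefSeq annotations, and is called Pcdhgc4 here. ENSMUSG00000007440 is named Pcdha11 in the tables and in GENCODE but holds the RefSeq start of Pcdha10, and is called Pcdha10 here to keep it apart from the other identifier named Pcdha11. Of the 59 identifiers, 55 passed the filter on low counts. Pcdha4 had 3 counts in all 20 libraries, and only 494 of its 5768 exonic bases are free of another annotated gene on the same strand, so that its level was not measured. Pcdhb1 had 27 counts in all, with at most 5 in a library, Pcdhgb8 had 3, and its second identifier had 0.

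The libraries held 14191093 to 16752326 counts on genes, of which 9624 to 15114 fell on the members. Ube3a itself ranged from 54.4 to 69.96 CPM (read counts scaled to library size with TMM factors) in WT cortex and from 129.6 to 181.8 in Ube3a+2 cortex, and from 57.1 to 76.8 against 142.5 to 194.7 in hippocampus, so that Ube3a went with the genotype labels. The sex labels did not all hold: in 2 of 10 mice, both WT, Xist and Y-linked counts of both regions went against the labelled sex. Mouse 3, labelled male, had Xist of 118 to 259 CPM and Y-linked counts of 0, and mouse 5, labelled female, had 109 to 115 CPM of Y-linked genes. The cortex library of WT mouse 2 stood apart, with 69.7% of its reads on genes, the lowest of the 20. Of the region markers, 5 of 6 for hippocampal neurons were higher in hippocampus, and of 6 for neocortical neurons 4 were lower and 1, Bcl11b, was higher. The make-up of the regions differed too, since 5 of 6 neuron markers were lower in hippocampus, with a median log2 fold change of -0.44, and 6 of 7 astrocyte and 6 of 6 dividing-cell markers were higher, with medians of 0.47 and 0.78. Summed neuron markers spanned 8066 to 9416 CPM over the cortex libraries of both genotypes and 6446 to 8181 over the hippocampus libraries. No marker gene was at 0 in all libraries. Their part in the region differences of the members was not tested. In 4 hippocampus libraries, from WT mouse 4 and Ube3a+2 mice 7, 9 and 10, summed markers of choroid plexus, striatum or thalamus passed 3 times the median of the 10 hippocampus libraries, up to 1966 CPM of choroid plexus markers in mouse 7 and 749 CPM of thalamic markers in mouse 10. Region results are therefore also given without these 4 libraries, a choice made after the marker sums were seen. The cortex libraries of Ube3a+2 mice 8 and 9 also stood apart, with 309.8 and 303 CPM of Cajal-Retzius markers where the other 8 cortex libraries had 149 to 206, 575 and 673 CPM of neocortical markers where they had 705 to 887, and 8066 and 8556 CPM of neuron markers where they had 9014 to 9416. Meningeal markers reached 712 CPM in mouse 8. All 21 region calls held without these 2 libraries.

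Levels of the genes were compared per kilobase of counted exon (CPM per kb, mean of the 20 libraries). Pcdhgc3 stood first, with 32.5 ± 1.27 in cortex and 47.96 ± 3.35 in hippocampus (SD, n = 10 libraries each). Pcdhac2 followed with 21.2 ± 1.92 and 22.9 ± 2.28, and Pcdhgc4 with 18.95 ± 2.16 and 18.99 ± 4.23. Both differed by less than the sum of their SDs in either region, as did Pcdhgc4 and the next in order, Pcdhga11, with 16.8 ± 2.04 and 17.3 ± 2.53. The other C-type genes were far lower, with means over all libraries of 3.4 for Pcdhgc5 and 2.69 for Pcdhac1. Among the alternates, whose promoters are chosen at random, Pcdhga11 was highest with a mean of 17.1, Pcdha12 led the alpha genes with 6.95, and Pcdhb9 the beta genes with 4.95. The median over measured genes was 5.59 for gamma A, 4.38 for alpha, 2.4 for gamma B and 1.41 for beta. Some 50-base windows of the counted exons also occur in transcripts of other genes. Their share per measured gene was 10.2% to 29.2% in alpha alternates and 2.67% to 17.9% in gamma B. In beta it was 1.80% to 12.0%, in gamma A 0% to 4.44%, and in each C-type gene 0%. Reads there can match in several places and go uncounted, which can lower the levels of the subgroups unequally. Order along the chromosome and level were weakly related in the 3 clusters (Spearman rho 0.15 over 11 alpha, 0.01 over 21 beta and -0.07 over 18 gamma A and B genes, a description across genes that share libraries).

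**Figure D1:**
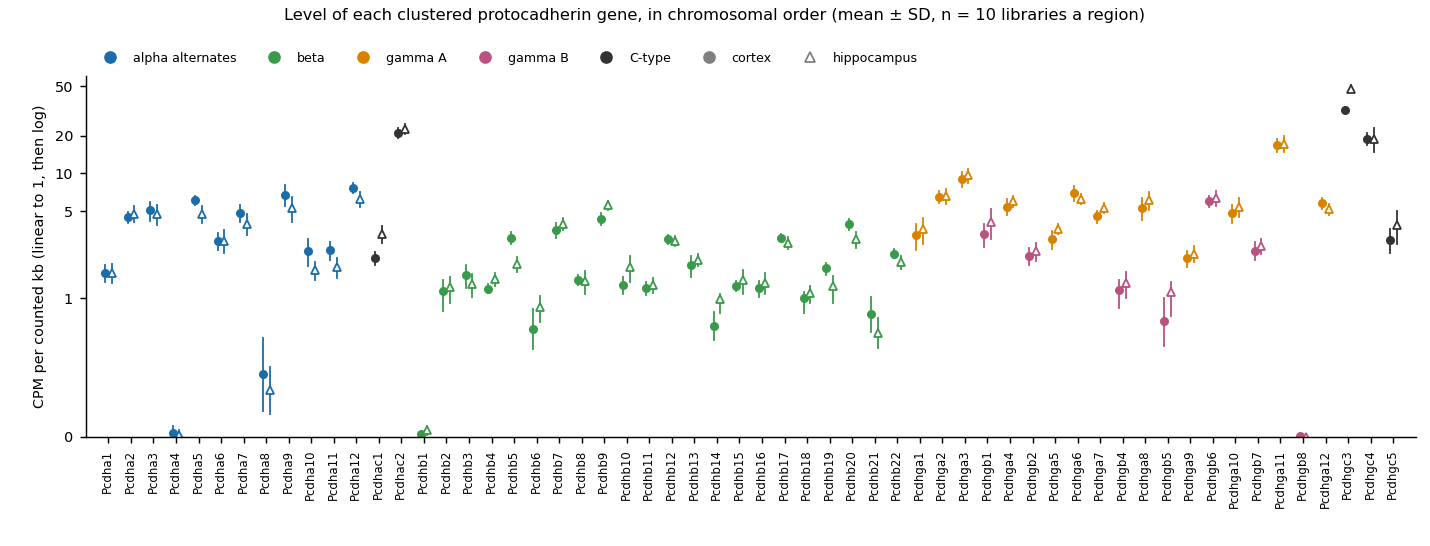
Level of each clustered protocadherin gene in CPM per counted kb (y axis linear to 1 and then logarithmic), in chromosomal order, as mean ± SD over 10 cortex (filled circles) and 10 hippocampus libraries (open triangles). Pcdhgc3, Pcdhac2, Pcdhgc4 and Pcdhga11 stand above all other genes, and Pcdhb1 and Pcdhgb8 lie at or near 0. Pcdha4 is also drawn near 0, but its level was not measured, with 494 of its 5768 exonic bases counted.

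The first comparison asked how the members differ between hippocampus and cortex. Of the 55 members tested, 21 differed at an adjusted p under 0.05 (edgeR quasi-likelihood test over 15661 genes, Benjamini-Hochberg), 11 of them higher and 10 lower in hippocampus, a share of 38.2% where 50.9% of all genes passed, 25.3% higher and 25.6% lower. The fit held no term for the mouse, although both regions came from the same mice. In an alternative fit with the mouse as a block, 20 of the 21 calls held. There Pcdhb7, Pcdhgb1, Pcdhga8 and Pcdhga10 were also called higher and Pcdhga12 lower, where 55.8% of all genes were called. The calls of the first fit differed in direction by subgroup. All 6 called alpha alternates were lower, all 3 called C-type genes and all 3 called gamma A or B genes were higher, and the beta genes split into 5 higher and 4 lower. The median log2 fold change was -0.30 over the 11 alpha alternates, 0.08 over the 21 beta, 0.14 over the 18 gamma A and B and 0.39 over the 5 C-type genes, against -0.01 over all genes. Removing the trend of each library on transcript length and GC content left 21 calls but moved their split to 6 higher and 15 lower, where 54.1% of all genes were called, 21.4% higher and 32.7% lower. Scaling by library totals alone gave 15 higher and 9 lower, where 49.8% of all genes were called, 31.1% higher and 18.7% lower. Under the length and GC correction the alpha alternates kept 6 lower and 0 higher calls, whereas gamma A and B had 1 higher and 2 lower, and beta had 3 higher and 7 lower with a median of -0.00, so that the direction of the beta and gamma alternates as groups depended on this step.

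**Figure D2:**
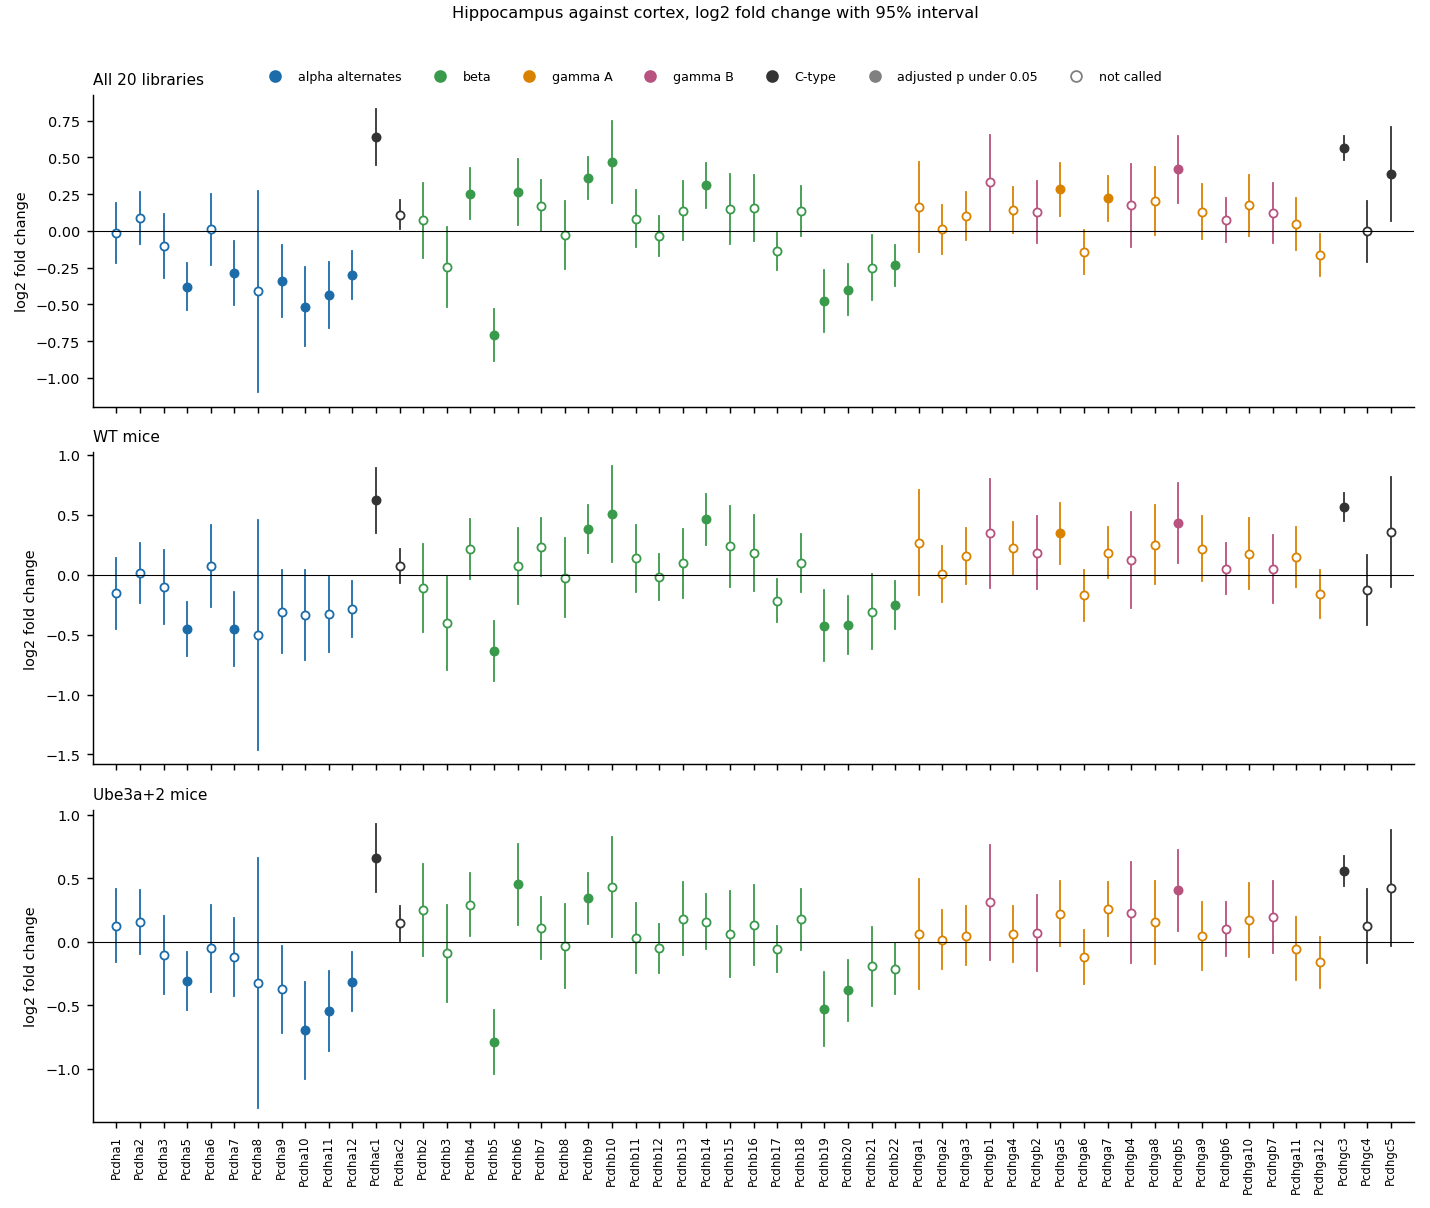
Log2 fold change of hippocampus against cortex with its 95% interval for the 55 members tested, in chromosomal order, over all 20 libraries, in the WT and in the Ube3a+2 mice; filled circles passed an adjusted p under 0.05. The alpha alternates from Pcdha5 on lie mostly below 0, Pcdhb5 is the lowest called gene, and Pcdhac1 and Pcdhgc3 lie well above 0 in all 3 panels.

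Pcdhgc3, the C-type gene with the highest level, rose in hippocampus in 10 of 10 mice. In cortex it measured 107, 106, 104, 108 and 112 CPM in WT mice and 112, 116, 111, 115 and 105 in Ube3a+2 mice. In hippocampus it measured 158, 139, 175, 157 and 169 CPM in WT mice and 181, 163, 161, 162 and 157 in Ube3a+2 mice. The regions did not overlap, and the difference was 0.56 on the log2 scale (SE 0.04, 1.48-fold, edgeR adjusted p = 8.19e-10). Only 3 of the 55 members had regions that did not overlap, or 5.45%, where 9.27% of all genes did; the others were Pcdhac1 and Pcdhb5.

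Pcdhac1, the first C-type gene of the alpha cluster, behaved alike at a much lower level. It ranged from 4.36 to 6.35 CPM over the 10 cortex libraries and from 6.5 to 10.1 over the 10 hippocampus libraries, higher in 10 of 10 mice by 0.64 on the log2 scale (SE 0.09, 1.56-fold, edgeR adjusted p = 6.58e-06). The called alternates of its own cluster went the other way. Pcdhgc5 measured 17.2, 9.87, 12.2, 13.0 and 15.3 CPM in WT cortex and 19.4, 16.7, 17.9, 15.6 and 17.0 in WT hippocampus. In Ube3a+2 mice it measured 13.3, 9.82, 13.1, 18.7 and 12.9 CPM in cortex and 19.7, 12.0, 17.6, 30.2 and 11.6 in hippocampus. The groups overlapped, and the difference of 0.39 (SE 0.15, edgeR adjusted p = 0.042) lost its call when any of mice 2, 3, 4, 5, 6 or 8 was left out, with adjusted p up to 0.093. It was also lost without the cortex library of WT mouse 2 alone (adjusted p = 0.072) and with the length and GC correction (adjusted p = 0.070), and held without the 4 libraries with markers of neighbouring tissue, at 0.43 (adjusted p = 0.0099). Pcdhgc5 was higher in hippocampus in 9 of 10 mice. With the mouse as a block it was called at 0.37 (edgeR adjusted p = 0.0019). With the block and the length and GC correction together it was at 0.31 (adjusted p = 0.0062).

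The other C-type genes did not pass the test. Pcdhac2 was at 64.1 ± 5.83 CPM in cortex and 69.2 ± 6.91 in hippocampus (SD, n = 10), a log2 difference of 0.11 with a 95% interval of 0.01 to 0.21 and an edgeR adjusted p of 0.059. Pcdhgc4 was at 65.9 ± 7.52 and 66.0 ± 14.7 CPM, with an interval of the log2 difference from -0.21 to 0.21. The highest Pcdhgc4 and Pcdhgc5 values of all, 100.3 and 30.2 CPM, were in the hippocampus of Ube3a+2 mouse 9, which also held the highest striatal (510 CPM) and interneuron (769 CPM) marker sums. The cortex library of mouse 9 was likewise the highest of its region for both genes, at 79.6 and 18.7 CPM. It held 171 CPM of striatal and 428 CPM of interneuron markers, where cortex libraries spanned 89 to 184 and 324 to 446 CPM. The part of neighbouring tissue in these values was not tested.

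**Figure D3:**
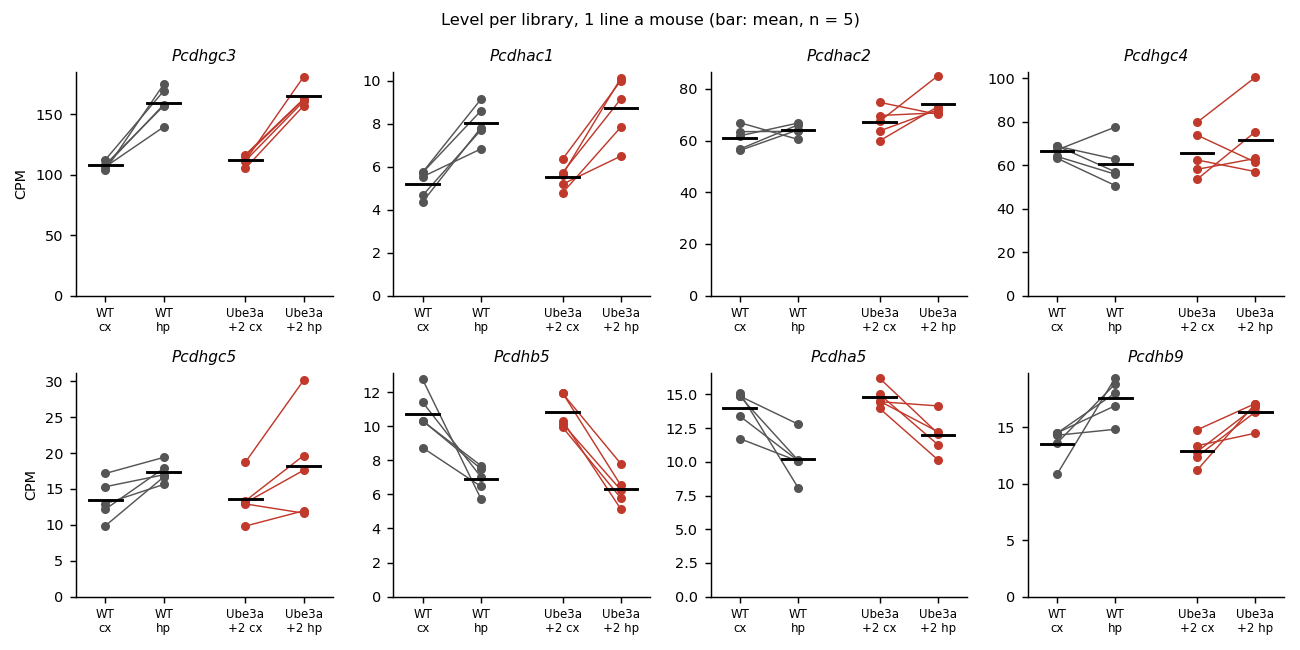
CPM of the 5 C-type genes and of Pcdhb5, Pcdha5 and Pcdhb9 in every library, with a line joining cortex (cx) and hippocampus (hp) of 1 mouse and a bar at the mean of 5. Every line rises for Pcdhgc3, Pcdhac1 and Pcdhb9 and falls for Pcdhb5 and Pcdha5, while lines of Pcdhac2 and Pcdhgc4 go both ways.

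Of the 11 alpha alternates tested, Pcdha5, Pcdha7, Pcdha9, Pcdha10, Pcdha11 and Pcdha12 fell in hippocampus and none rose. Pcdha5 had the smallest p. It measured 13.4, 14.9, 11.7, 14.9 and 15.1 CPM in WT cortex, and 10.1, 12.8, 10.0, 10.1 and 8.08 in WT hippocampus. In Ube3a+2 mice it measured 16.2, 14.0, 14.5, 14.5 and 15.0 CPM in cortex and 12.1, 10.1, 12.2, 14.1 and 11.3 in hippocampus. It was lower in hippocampus in 10 of 10 mice although the ranges overlapped, and fell by 0.38 on the log2 scale (SE 0.08, edgeR adjusted p = 0.00031).

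Pcdha10 fell by 0.52 (SE 0.13, edgeR adjusted p = 0.0021), from 3.69 to 8.14 CPM in cortex to 3.24 to 5.37 in hippocampus, in 8 of 10 mice. Pcdha11 fell by 0.44 (SE 0.11, adjusted p = 0.0019) in 10 of 10 mice, and Pcdha12, the highest of the alternates of this cluster, by 0.30 (SE 0.08, adjusted p = 0.0036) in 9 of 10. Pcdha7 lost its call without mouse 1, 5 or 9 and Pcdha9 without mouse 4, 5 or 7, with adjusted p up to 0.085 and 0.061, and Pcdha9 also without the 4 libraries with markers of neighbouring tissue (adjusted p = 0.12). Pcdha7 was not called either when libraries were scaled by their totals alone (adjusted p = 0.077). Genes nearer the C-type end of the cluster differed more: the rank of the 11 alternates along the chromosome and their log2 fold change had a Spearman rho of -0.70, which was -0.40 in the WT and -0.85 in the Ube3a+2 mice. These are descriptions across neighbouring genes of the same libraries, and 10.2% to 29.2% of the 50-base windows in the counted exons of these genes also occur in transcripts of other genes, where reads can match in several places and go uncounted.

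Beta genes moved in both directions. Pcdhb5 fell most of all members called, by 0.71 on the log2 scale (SE 0.09, edgeR adjusted p = 6.85e-07). In cortex it measured 11.4, 10.3, 8.74, 12.8 and 10.3 CPM in WT mice and 10.2, 10.3, 11.9, 9.95 and 12.0 in Ube3a+2 mice. In hippocampus it measured 7.03, 7.69, 6.47, 5.75 and 7.51 CPM in WT mice and 6.26, 5.13, 7.80, 5.79 and 6.53 in Ube3a+2 mice, below every cortex library. Pcdhb19 fell by 0.48 (SE 0.10, adjusted p = 0.00046) and Pcdhb20 by 0.40 (SE 0.08, adjusted p = 0.00039), each in 9 of 10 mice.

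Against these, Pcdhb9 rose in 10 of 10 mice, from 13.2 ± 1.40 CPM in cortex to 17.0 ± 1.56 in hippocampus (SD, n = 10), a log2 difference of 0.36 (SE 0.07, edgeR adjusted p = 0.00015). Pcdhb4, Pcdhb6, Pcdhb10 and Pcdhb14 were the other beta genes called higher, and Pcdhb22 the other one called lower; they fall outside the rule for named genes and are given because the count is small. Pcdhb6 lost its call when any of mice 1, 3, 4, 5, 6, 7 or 8 was left out and Pcdhb4 without mouse 10, with adjusted p up to 0.14 and 0.053. With the length and GC correction both lost their calls (adjusted p = 0.20 and 0.11). Without the 4 libraries with markers of neighbouring tissue Pcdhb4, Pcdhb6, Pcdhb10 and Pcdhb22 were no longer called, with adjusted p of 0.10, 0.13, 0.094 and 0.055.

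Of the 18 gamma A and B genes, 3 were called, all higher in hippocampus; with the mouse as a block 7 were, 6 higher and 1 lower, where 55.8% of all genes were called, 27.4% higher and 28.4% lower. Pcdhgb5, low in all libraries, was at 3.84 ± 0.81 CPM in cortex and 5.13 ± 1.11 in hippocampus (SD, n = 10), higher in 9 of 10 mice by 0.42 on the log2 scale (SE 0.11, edgeR adjusted p = 0.0034). Pcdhga5 rose by 0.28 (SE 0.09, adjusted p = 0.0099) in 9 of 10 mice and Pcdhga7 by 0.22 (SE 0.07, adjusted p = 0.014) in 10 of 10. With the length and GC correction Pcdhga5 and Pcdhga7 lost their calls, at 0.18 (adjusted p = 0.071) and 0.12 (adjusted p = 0.16). With this correction and the mouse as a block Pcdhga5 was called, at 0.19 (edgeR adjusted p = 0.041). Pcdhga7 was not, at 0.13 (adjusted p = 0.055).

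Pcdhga11, the highest of the alternates, did not differ detectably, with 44.2 ± 5.38 CPM in cortex and 45.7 ± 6.66 in hippocampus and an interval of the log2 difference from -0.13 to 0.22. Its 2 lowest hippocampus values, 33.9 CPM in WT mouse 4 and 33.3 in Ube3a+2 mouse 10, were in libraries with high thalamic markers (334 and 749 CPM), but mouse 7, with 413 CPM of these markers, was at 46.4 CPM. Without the 4 libraries with markers of neighbouring tissue its log2 difference was 0.16 with an edgeR adjusted p of 0.081. Over the 5 WT mice it was 0.15 with an adjusted p of 0.34. Without the hippocampus library of mouse 4 this became 0.25 with an edgeR adjusted p of 0.039. That library held the lowest WT value of Pcdhga11 in hippocampus, so that leaving it out raises the difference in any case. No conclusion is drawn from this p. Over the 5 Ube3a+2 mice the log2 difference was -0.05 (adjusted p = 0.77). Without the hippocampus libraries of mice 7, 9 and 10 that became 0.07 (adjusted p = 0.73). With the length and GC correction the difference over all 20 libraries was -0.05 (adjusted p = 0.69).

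The region difference could be measured in 2 sets of mice that share no library. In WT mice 13 of 55 members were called, 7 higher and 6 lower, where 37.1% of all genes were called (18.8% higher and 18.3% lower), and in Ube3a+2 mice 12, 5 higher and 7 lower, where 33.2% were (17.1% higher and 16.1% lower). Pcdha5, Pcdhac1, Pcdhb5, Pcdhb9, Pcdhb19, Pcdhb20, Pcdhgb5 and Pcdhgc3 were called in both, with the same sign, which is 61.5% of the calls in WT and 66.7% of those in Ube3a+2 mice. Over all 55 members the sign was the same for 50, or 90.9%, beside 83.0% of all genes; of all genes, 68.5% of the WT calls and 76.7% of the Ube3a+2 calls were called in both. Without the cortex libraries of mice 8 and 9, Pcdha5 and Pcdhb20 were no longer called in Ube3a+2 mice (adjusted p = 0.058 and 0.11). With the mouse as a block the WT count was 20, where 43.1% of all genes were called. Without mouse 5 it fell to 7, and the Ube3a+2 count was 7 without mouse 7. Shares of all genes called are not given for those fits, so that the falls are no result about the members alone. Without the 3 hippocampus libraries of mice 7, 9 and 10 the Ube3a+2 count was 6, where 23.4% of all genes were called.

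Summed over a subgroup, the C-type genes rose from 254 ± 10.3 to 309.8 ± 6.18 CPM in WT and from 264 ± 18.6 to 337 ± 20.3 CPM in Ube3a+2 mice (SD, n = 5), with a mean log2 ratio of 0.32 ± 0.08 (SD, n = 10 mice) that was above 0 in 10 of 10. Their share of all member counts was 33.5% in WT cortex and 38.1% in WT hippocampus. Most of the rise in the sum lay in Pcdhgc3, which went from 107.5 to 159.5 CPM in WT mice. In the same mice Pcdhac2 went from 61.0 to 64.2 CPM, Pcdhgc5 from 13.5 to 17.3 and Pcdhac1 from 5.21 to 8.02. Pcdhgc4 went the other way, from 66.3 to 60.7 CPM. The alpha alternates went from 109 ± 8.92 to 92.0 ± 10.3 CPM in WT and from 116 ± 5.52 to 99.2 ± 5.82 in Ube3a+2 mice, a log2 ratio of -0.24 ± 0.14 that was below 0 in 9 of 10 mice. Gamma B was above 0 in 9 of 10 mice (0.18 ± 0.14), whereas gamma A (0.06 ± 0.14, above 0 in 7) and beta (-0.03 ± 0.10, below 0 in 8) had mean ratios smaller than their SD. The gamma cluster as a whole, which also holds Pcdhgc3, Pcdhgc4 and Pcdhgc5, was at 0.22 ± 0.09. Its sum went from 424 to 493 CPM in WT mice, and most of that rise lay in Pcdhgc3. The alpha cluster, which also holds Pcdhac1 and Pcdhac2, was at -0.07 ± 0.12.

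**Figure D4:**
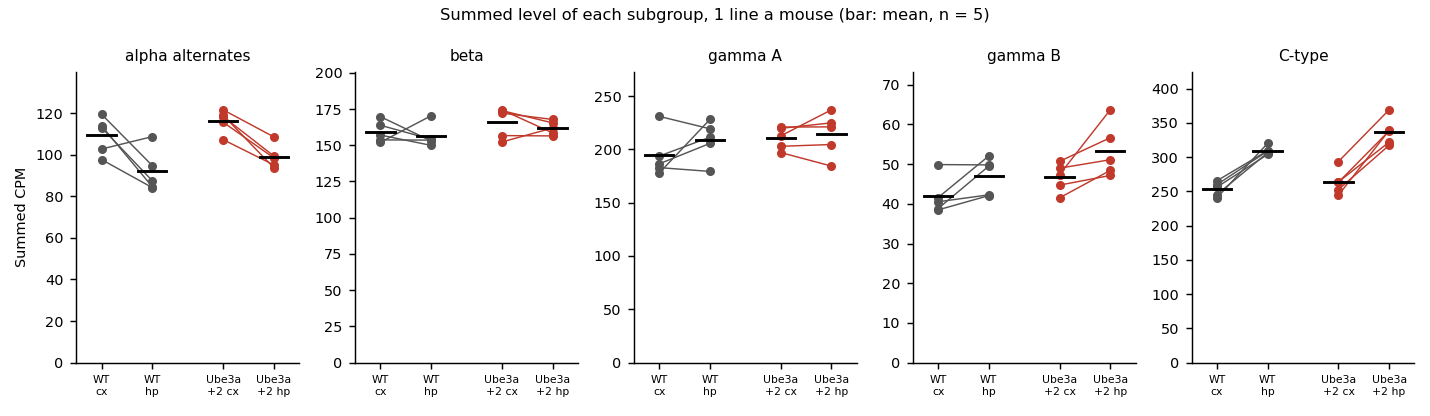
Summed CPM of each subgroup in every library, with a line joining cortex (cx) and hippocampus (hp) of 1 mouse and a bar at the mean of 5. The C-type sum rises in all 10 mice and the alpha alternates fall in 9, while the beta sum falls slightly in 8 mice and the gamma A sum rises in 7.

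The second comparison asked whether extra Ube3a changed the members. None of the 55 was called in cortex or in hippocampus (edgeR, with 0.00669% and 0.00657% of all genes called, that is Ube3a alone in each), and limma voom and DESeq2 also called 0. At an unadjusted p under 0.05 there were 3 members in cortex and 5 in hippocampus, beside 4.44% and 7.21% of all genes. The 95% interval of the log2 fold change lay inside -0.5 to 0.5 for 39 members in cortex and 33 in hippocampus, beside 73.8% and 69.9% of all genes. Summed choroid plexus, striatal or thalamic markers were raised in 3 of the 5 Ube3a+2 and 1 of the 5 WT hippocampus libraries. Without these 4 libraries 0 members were called, 1 had an unadjusted p under 0.05, beside 2.53% of all genes, and 23 intervals lay inside -0.5 to 0.5, beside 60.2% of all genes.

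The members with the smallest p in cortex were Pcdhb19, Pcdhgb5 and Pcdhga4, all with an edgeR adjusted p of 0.96. Pcdhb19 measured 10.6, 11.5, 11.7, 12.4 and 10.4 CPM in WT and 12.9, 12.5, 13.9, 13.2 and 14.6 in Ube3a+2 cortex, a log2 difference of 0.25 (SE 0.09). Pcdhgb5 was higher by 0.42 (SE 0.16) and Pcdhga4 by 0.27 (SE 0.12), both with overlapping libraries. The Ube3a+2 cortex libraries of mice 8 and 9 stood apart in their markers, as given above, and without them the differences were 0.24, 0.26 and 0.21 in the order named. The part of other cell types in these values was not tested.

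In hippocampus Pcdhac2, Pcdha1 and Pcdhb2 came first, with an edgeR adjusted p of 0.67 each. Pcdhac2 measured 60.4, 66.1, 64.1, 66.8 and 63.6 CPM in WT and 70.7, 72.0, 73.2, 70.1 and 85.1 in Ube3a+2 hippocampus, a log2 difference of 0.21 (SE 0.06), and Pcdha1 and Pcdhb2 had differences of 0.39 (SE 0.13) and 0.44 (SE 0.16). The highest Pcdhac2 value, 85.1 CPM, was in mouse 10, whose hippocampus library held 749 CPM of thalamic markers. With a mouse left out the differences were 0.16 to 0.23 for Pcdhac2, 0.33 to 0.43 for Pcdha1 and 0.38 to 0.52 for Pcdhb2. The part of neighbouring tissue in them was not tested. In cortex Pcdhac2 was higher by 0.14 (SE 0.07, edgeR adjusted p = 0.96), and its groups overlapped. The 4 remaining C-type genes lay between -0.02 and 0.09 in cortex and between 0.04 and 0.23 in hippocampus.

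Most estimates were nonetheless above 0, in 42 of 55 members in cortex and 43 in hippocampus, with median log2 fold changes of 0.10 and 0.11 beside 0.00 over all genes in both. Of all genes, 51.4% and 50.7% were above 0. The 2 regions come from the same mice, and members of a cluster share libraries, so that these counts carry no test. Without mouse 2, or without mouse 9, the share above 0 in cortex was 67.3%. Without the cortex libraries of both mice 8 and 9, 36 members were above 0 in cortex and the median was 0.04. With the length and GC correction 40 members were above 0 in cortex and 38 in hippocampus, with medians of 0.07 and 0.05, beside -0.01 and -0.03 over all genes.

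**Figure D5:**
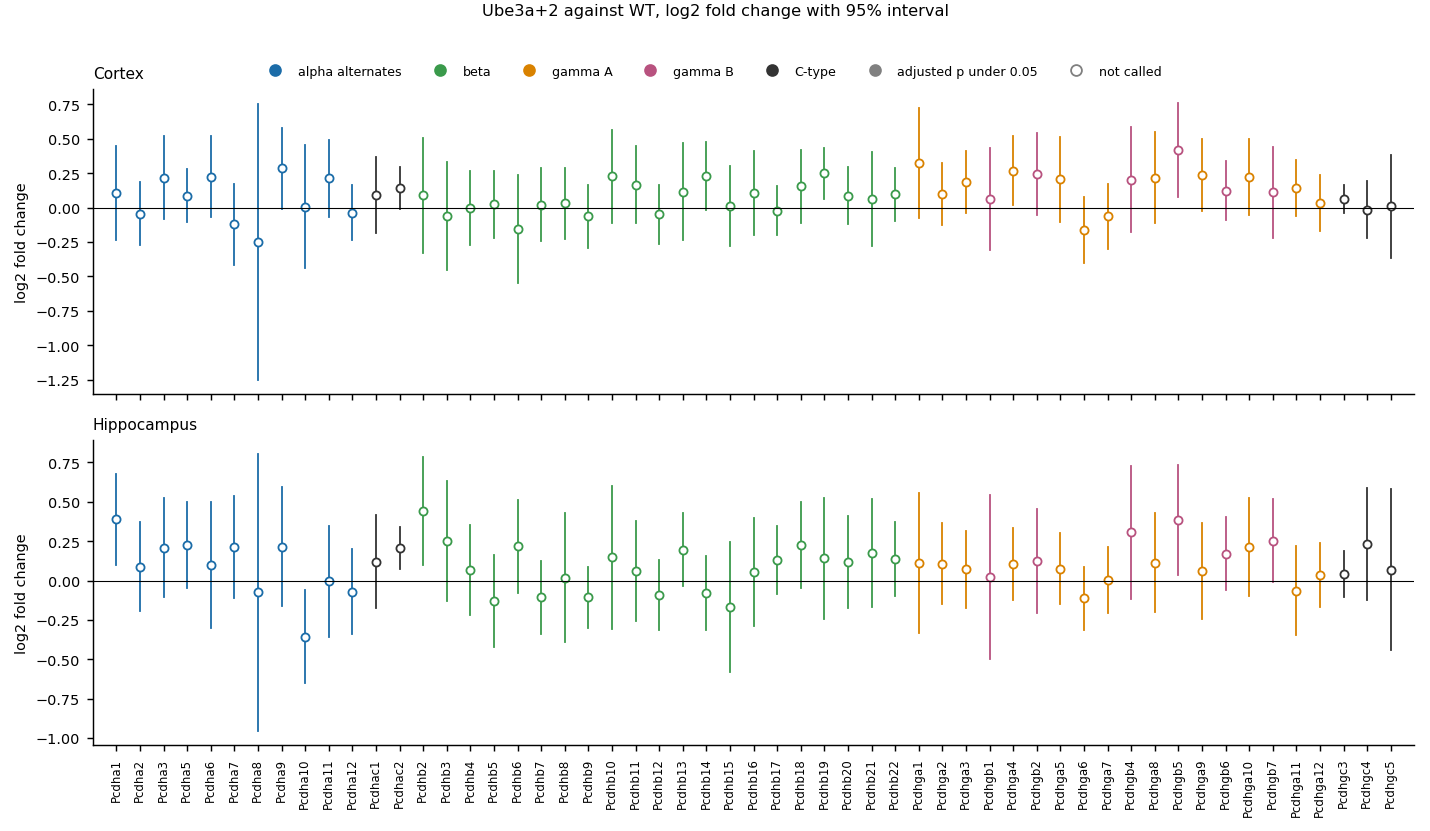
Log2 fold change of Ube3a+2 against WT with its 95% interval for the 55 members tested, in chromosomal order, in cortex and in hippocampus; open circles did not pass an adjusted p under 0.05. No circle is filled, and 42 of 55 estimates in cortex and 43 in hippocampus lie above 0.

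Whether the effect of genotype differed between the regions was tested in 1 model. No member and no gene was called (edgeR, 0.0% of 15661 genes, and 0 members by limma voom and DESeq2), and no member had an unadjusted p under 0.05, beside 3.77% of all genes. Pcdhb14 came closest, with a log2 difference of the differences of -0.30 (95% interval -0.61 to 0.00, adjusted p = 1.00). Its interval reached beyond -0.5, as did those of other members in either direction, since 29 of 55 lay inside -0.5 to 0.5, beside 56.0% of all genes.

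Members also varied between mice of a group. The median biological coefficient of variation was 12.5% over the members and 11.6% over all genes, and 15.7% over the alpha alternates. After group means were removed, pairs of gamma A and B genes had a median correlation across the 20 libraries of 0.28, alpha alternates 0.11 and beta genes 0.13, against 0.00 over all gene pairs, a description with no test.

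A test of differences between mice of 1 genotype, added after the counts were seen, called 1 member, Pcdha8, of the 144 genes called in all (0.919%). Pcdha8 is the lowest of the measured members. In cortex it was at 1.34, 1.35, 0.78, 1.73 and 0.87 CPM in WT mice and 0.38, 1.1, 0.60, 0.49 and 2.53 in Ube3a+2 mice. In hippocampus of the same mice it was at 1.00, 0.86, 0.49, 1.49 and 0.40, and 0.42, 0.79, 0.71, 0.58 and 1.56 CPM. WT mouse 4 and Ube3a+2 mouse 10 were highest of their groups in both regions (edgeR adjusted p = 0.043). Pcdha8 had only 6 to 40 counts in a library. The hippocampus libraries of mice 4 and 10 held 334 and 749 CPM of thalamic markers, and that of mouse 7, at 0.79 CPM of Pcdha8, held 413. In cortex mice 4 and 10 held 76.1 and 73.4 CPM of these markers, where all libraries spanned 60.4 to 76.1. The part of neighbouring tissue was not tested. The call was lost in WT mice alone, in Ube3a+2 mice alone, and in leaving out any of mice 1, 3, 4, 5, 6, 7 or 10.

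Genes known to act on these clusters or with their proteins were read from lists, beside the 25.3% of all genes higher and 25.6% lower in hippocampus. Of 25 regulators of promoter choice and chromatin, 2 were higher and 5 lower in hippocampus, or 7 of 25 called, with a median log2 fold change of -0.03. Wapl, which releases cohesin from DNA, was higher by 0.35 (SE 0.04, edgeR adjusted p = 3.13e-07), and the methylcytosine dioxygenases Tet3 and Tet2 were lower, at -0.34 and -0.30. Of 21 signalling partners and proteases, 8 were higher and 6 lower, or 14 of 21 called, led by Cyfip1, a subunit of the WAVE actin-regulating complex, at 0.59 (SE 0.08), Ret at 0.50 and Prkca at 0.48. Of 15 tested genes that neighbour the clusters, 1 was higher and 6 lower, or 7 of 15 called, among them Fchsd1 at -0.41, Taf7 at -0.22 and Wdr55 at -0.21, and their median of -0.10 lay below the -0.01 of all genes. Without the 4 hippocampus libraries with markers of neighbouring tissue Ret, at 0.21, Taf7 and Wdr55 were no longer called (adjusted p = 0.24, 0.073 and 0.058). Taf7 also lost its call without mouse 5 or mouse 9, without the cortex library of WT mouse 2, without the cortex libraries of mice 8 and 9, and with library totals alone (adjusted p = 0.058 to 0.086). Between genotypes no gene of the 3 lists was called in either region by edgeR.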

How the data were processed

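RNA was taken from the cortex and hippocampus of 5 WT and 5 Ube3a+2 pups, and libraries were made with a stranded poly(A) kit. Per the labels and the submitters' processing notes, the authors aligned reads with HISAT2 2.1.0 to GRCm38 (mm10) and counted them per gene with HTSeq 0.11.2. The deposited values are raw read counts per gene in 1 table per library. The annotation release and strand setting are not given in the sources used here. Pcdhga10 had reads although an antisense gene covers all its counted exons, as in counting by strand. Reads outside genes (4.46% to 7.12%), in several genes (0.76% to 0.88%) or with several matches (10.3% to 13.7%) were left out of totals and tests.

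Counts were tested with edgeR 4.0.16 (R 4.3.3) after filterByExpr, TMM and a robust quasi-likelihood fit: regions and the interaction over all 20 libraries with 4 groups, genotypes within each region. Alternatives used DESeq2 1.42.0 and limma 3.58.1, other scalings, no filter, length and GC offsets (splines with 5 degrees of freedom), labelled sex, and each mouse left out. Gene positions, lengths and the unshared exon bases of each member came from GENCODE M21. The scripts were tested on simulated data. Same-numbered libraries come from 1 mouse per the labels; their residuals correlated with a median of 0.22 (9 of 10 above 0.1), against -0.04 for other mice of the genotype. Named genes were the 5 C-type genes, the 4 members of smallest region p among those called and the highest and lowest level in each of alpha, beta and gamma A with B, the 3 of smallest p per genotype test, 1 for the interaction, and the 3 largest called changes of each other list. Members and lists were chosen with earlier results of these data known. Whether mice share litters is not stated, so that p-values measure the spread between these mice.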

Additional observations from a re-analysis of the deposited data

Results flagged for a closer look

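Among 112 sets of 5 libraries (28 genes or sums in 4 groups), 10 held a library far from the other 4 by Dixon's test, where chance gives about 1 in 20, or 5.6. In Ube3a+2 hippocampus Pcdhac2 was highest in mouse 10 (85.1 CPM, the others 70.1 to 73.2), Pcdhgc3 highest in mouse 6 (181 CPM, the others 157 to 163), Pcdhb9 lowest in mouse 8 (14.5 CPM, the others 16.4 to 17.1) and Pcdhga11 lowest in mouse 10 (33.3 CPM, the others 46.4 to 50.2). In WT hippocampus Pcdhb19 (11.9 CPM, the others 7.15 to 8.05) and the summed beta genes (170.3 CPM, the others 149.9 to 154) were highest in mouse 2, Pcdhga5 was highest in mouse 3 (10.2 CPM, the others 8.43 to 8.79), and Pcdhga11 lowest in mouse 4 (33.9 CPM, the others 47.6 to 51.3). In WT cortex Pcdhb9 was lowest in mouse 5 (10.8 CPM, the others 13.6 to 14.5) and the summed gamma B genes highest in mouse 1 (49.9 CPM, the others 38.5 to 41.6).

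The libraries with the lowest Pcdhga11, WT mouse 4 and Ube3a+2 mouse 10, had thalamic and habenular marker sums of 334 and 749 CPM in hippocampus, while mouse 7, with 413 CPM, was at 46.4 CPM of Pcdhga11. The part of neighbouring tissue in these values was not tested.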

How the results depend on the processing

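The count of members called between regions stayed at 17 to 24 with each mouse left out and 18 to 25 under the other settings. Of the 21 calls, 16 held without each mouse in turn, 16 without the 4 hippocampus libraries with markers of neighbouring tissue and 16 in the same direction with length and GC offsets. In WT mice the count was 20 with the mouse as replicate block (the pairing is by animal), and 7 to 17 with a mouse left out; in Ube3a+2 mice it was 6 without the libraries with neighbouring tissue and 7 to 13 with a mouse left out. With the block 20 of the 21 region calls held and Pcdhb6 lost its call (adjusted p = 0.073). Calls between mice of 1 genotype were 3 without the filter, 0 in WT or Ube3a+2 mice alone and 0 to 1 with a mouse left out. Shares of all genes called are not given for these settings, nor for any fit with a mouse left out. Such counts are therefore no result about the members alone. The genotype and interaction counts were 0 under every setting run. No summed log2 ratio moved by more than its SD. The cause of these changes was not tested.

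Signs turned only in log2 values that passed no test. For Pcdhgc4 between regions they were 0.0023 (DESeq2), 0.0016 (RLE factors), 0.053 (library totals), 0.0042 (no filter), 0.0072 (without the cortex library of WT mouse 2), 0.088 (without the cortex libraries of mice 8 and 9) and -0.044 to 0.046 with a mouse left out, and -0.14 in Ube3a+2 mice without neighbouring-tissue libraries. For Pcdhga11 they were -0.045 with offsets, -0.056 with block and offsets, and in Ube3a+2 mice 0.066 without neighbouring-tissue libraries and -0.089 to 0.012 with a mouse left out. Between genotypes in cortex, Pcdhgc4 gave 0.013 (library totals) and -0.099 to 0.049, and Pcdhgc5 -0.000979 (voom), -0.027 (offsets), -0.17 (without the cortex libraries of mice 8 and 9) and -0.14 to 0.11. In hippocampus Pcdhgc3 gave -0.019 (offsets), Pcdhgc4 -0.062 (without neighbouring-tissue libraries), and Pcdhgc5 -0.025 (voom), -0.0195 (offsets), -0.081 (labelled sex, which goes against the counts of 2 WT mice) and -0.18 to 0.195. For the interaction, Pcdhac1 gave -0.00510 (library totals), -0.000413 (offsets), -0.014 (block and offsets) and -0.043 to 0.091, Pcdhgc3 0.035 and Pcdhgc4 -0.039 (without neighbouring-tissue libraries), Pcdhgc3 0.00034 (without the cortex libraries of mice 8 and 9) and -0.057 to 0.034, and Pcdhgc5 -0.019 (voom), -0.040 (block and offsets) and -0.055 to 0.17.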
